A study of Mus musculus with 9 samples.

Results

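The integrated stress response is followed here through 10 genes in mouse liver: Atf4, Atf3, Ddit3, Nupr1, Trib3, Chac1, Sesn2, Asns, Psat1 and Phgdh. They are listed by name, with no threshold on their values, but were chosen with earlier results of these data known. All 10 were found among the 16521 genes of the 2 deposited tables. Total liver RNA came from C57BL/6 mice, with titles that call the normal mice wild type. The normal group (n = 3) was given saline. The MCD model group (n = 3) was fed a diet deficient in methionine and choline, a standard way to give rodents a fatty, inflamed and scarred liver. The MCD + high dose SAR group (n = 3) had the same diet and was treated with sarsasapogenin (SAR), a steroidal sapogenin, so the 6 libraries of the latter groups share the diet. The sources used here do not state the age or sex of the mice, the length of the diet, or the amount and route of SAR. The design text states that mice were allotted to groups at random, but whether each library is a separate mouse is not said, so p-values measure the spread between these libraries only.

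In the integrated stress response, kinases that sense different stresses phosphorylate the translation factor eIF2α. These are PERK for unfolded protein in the endoplasmic reticulum, GCN2 for amino acid shortage, HRI for lack of haem and PKR for double-stranded RNA. Most protein synthesis is then lowered, while the mRNA of the transcription factor ATF4 is translated more, through short reading frames that lie ahead of its coding sequence. ATF4 binds with C/EBP family partners to a composite element in its target genes, which include other stress transcription factors, amino acid transporters, tRNA synthetases and the enzymes of serine and asparagine synthesis. In liver the response is known from amino acid imbalance, endoplasmic reticulum stress and mitochondrial defects, and the hormones FGF21 and GDF15 are among its secreted products.

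The promoters of 5 members are shown because they hold the composite element that ATF4 and C/EBP proteins bind, and because 3 of these genes rose on the diet while the other 2 did not pass the test. The sequences are RefSeq windows of 300 bases around the start site on GRCm38.p6, read along the strand of the gene, with the match in capitals. The RefSeq table matched all 10 members with 11 windows, of which Psat1 has 2. The first is Nupr1 at chr7:126625421-126625720 on the minus strand, with the match at -110 from the start site.
Nupr1: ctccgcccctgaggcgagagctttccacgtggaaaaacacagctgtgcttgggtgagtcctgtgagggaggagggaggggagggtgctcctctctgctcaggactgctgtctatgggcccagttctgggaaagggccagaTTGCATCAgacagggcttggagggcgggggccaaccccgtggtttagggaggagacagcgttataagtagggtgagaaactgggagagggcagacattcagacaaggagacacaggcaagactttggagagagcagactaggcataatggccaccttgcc
The second is Atf3 at chr1:191183284-191183583 on the minus strand, with the composite match at -110 and a match to the ATF/CRE-type motif at -10.
Atf3: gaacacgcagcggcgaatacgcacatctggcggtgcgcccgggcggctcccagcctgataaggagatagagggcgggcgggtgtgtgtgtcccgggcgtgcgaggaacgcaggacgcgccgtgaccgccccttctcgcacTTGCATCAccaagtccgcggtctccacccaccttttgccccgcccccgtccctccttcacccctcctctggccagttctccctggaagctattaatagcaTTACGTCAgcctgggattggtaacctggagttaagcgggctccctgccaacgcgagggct
The third is Trib3 at chr2:152344011-152344310 on the minus strand, with the match at 14 bases past the start.
Trib3: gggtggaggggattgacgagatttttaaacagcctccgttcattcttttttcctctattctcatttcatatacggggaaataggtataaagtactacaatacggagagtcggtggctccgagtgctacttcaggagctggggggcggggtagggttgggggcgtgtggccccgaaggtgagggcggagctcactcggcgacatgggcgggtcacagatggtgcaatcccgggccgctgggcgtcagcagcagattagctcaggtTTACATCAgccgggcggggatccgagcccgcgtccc
The fourth is Asns at chr6:7693160-7693459 on the minus strand, with the match at -23.
Asns: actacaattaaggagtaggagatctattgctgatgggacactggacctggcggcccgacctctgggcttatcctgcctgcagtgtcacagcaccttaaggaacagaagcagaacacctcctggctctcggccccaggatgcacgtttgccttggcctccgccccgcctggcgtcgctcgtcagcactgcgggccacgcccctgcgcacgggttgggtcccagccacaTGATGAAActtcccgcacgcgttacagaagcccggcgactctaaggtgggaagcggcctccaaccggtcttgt
The fifth is Chac1 at chr2:119350992-119351291 on the plus strand, with the match at -193.
Chac1: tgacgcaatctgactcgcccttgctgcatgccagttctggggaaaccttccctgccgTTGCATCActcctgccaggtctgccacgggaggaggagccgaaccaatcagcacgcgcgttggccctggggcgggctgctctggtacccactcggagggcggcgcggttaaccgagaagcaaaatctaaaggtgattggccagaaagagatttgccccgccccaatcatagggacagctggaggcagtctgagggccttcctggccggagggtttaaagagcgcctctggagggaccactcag

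The composite motif was searched as TGATGNAA and its reverse complement TTNCATCA, and no match to it overlapped a match to another motif searched. It was found in 5 of the 11 member windows and in 3.97% of 32851 RefSeq promoter windows of the same length. The ATF/CRE-type motif TNACGTCA, or TGACGTNA on the other strand, was found in 1 of the 11 windows, that of Atf3, and in 2.93% of all windows. The endoplasmic reticulum stress element, searched as CCAAT and CCACG with 9 bases between them on both strands, was found in 0 of the 11 and in 0.119% of all. Ddit3 and Psat1, which rose on the diet, had none of these letters in their windows, and Asns and Chac1, which did not pass the test, had a match. These are matches of letters in a short window and show no binding.

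Each deposited table gives only group means, and reads per library were recovered from them as described under the processing. Libraries are lettered within a group by falling size factor, with a having the largest, and the letters are unrelated to the labels' replicate numbers. Recovered reads ran from 4994052 to 6551017 in the normal and SAR libraries, without their most abundant genes, and from 12503819 to 14939063 in the model libraries. A value is given as normalised reads, which are reads divided by a size factor on a scale common to the 9 libraries. Fold changes and tests come from the scale of each pair of groups, as log2(value + 1) in limma with p-values adjusted after Benjamini and Hochberg across every gene in the fit, and a gene was called at an adjusted p under 0.05. The tissue label was checked against 12 hepatocyte markers, all of them in the tables. Albumin stood at 842230 in normal and 738902 in model liver in the authors' deposited table, as group means.

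In both the normal and the model group, library c stood apart. In the normal group its log2 values over 12169 genes, which are not independent of one another, had correlations of 0.9321 and 0.9221 with a and b, against 0.9753 for a with b. For model library c these values were 0.9235 and 0.9368 against 0.9787, and the SAR libraries correlated at 0.9599 to 0.9675. The 11 neutrophil markers summed to 125, 282 and 8067 normalised reads in normal libraries a, b and c. In model library c the 10 cholangiocyte markers summed to 2116 against 9906 and 11214 in a and b. Most of these sums is Spp1, at 1768, 8346 and 9495. Stellate cell and fibroblast markers summed to 11007 in model library c, against 26639 and 23139. In normal library c they summed to 1057, against 2779 and 4598. B and plasma cell markers summed to 740 in normal library c, against 142 and 147.

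**Figure D1:**
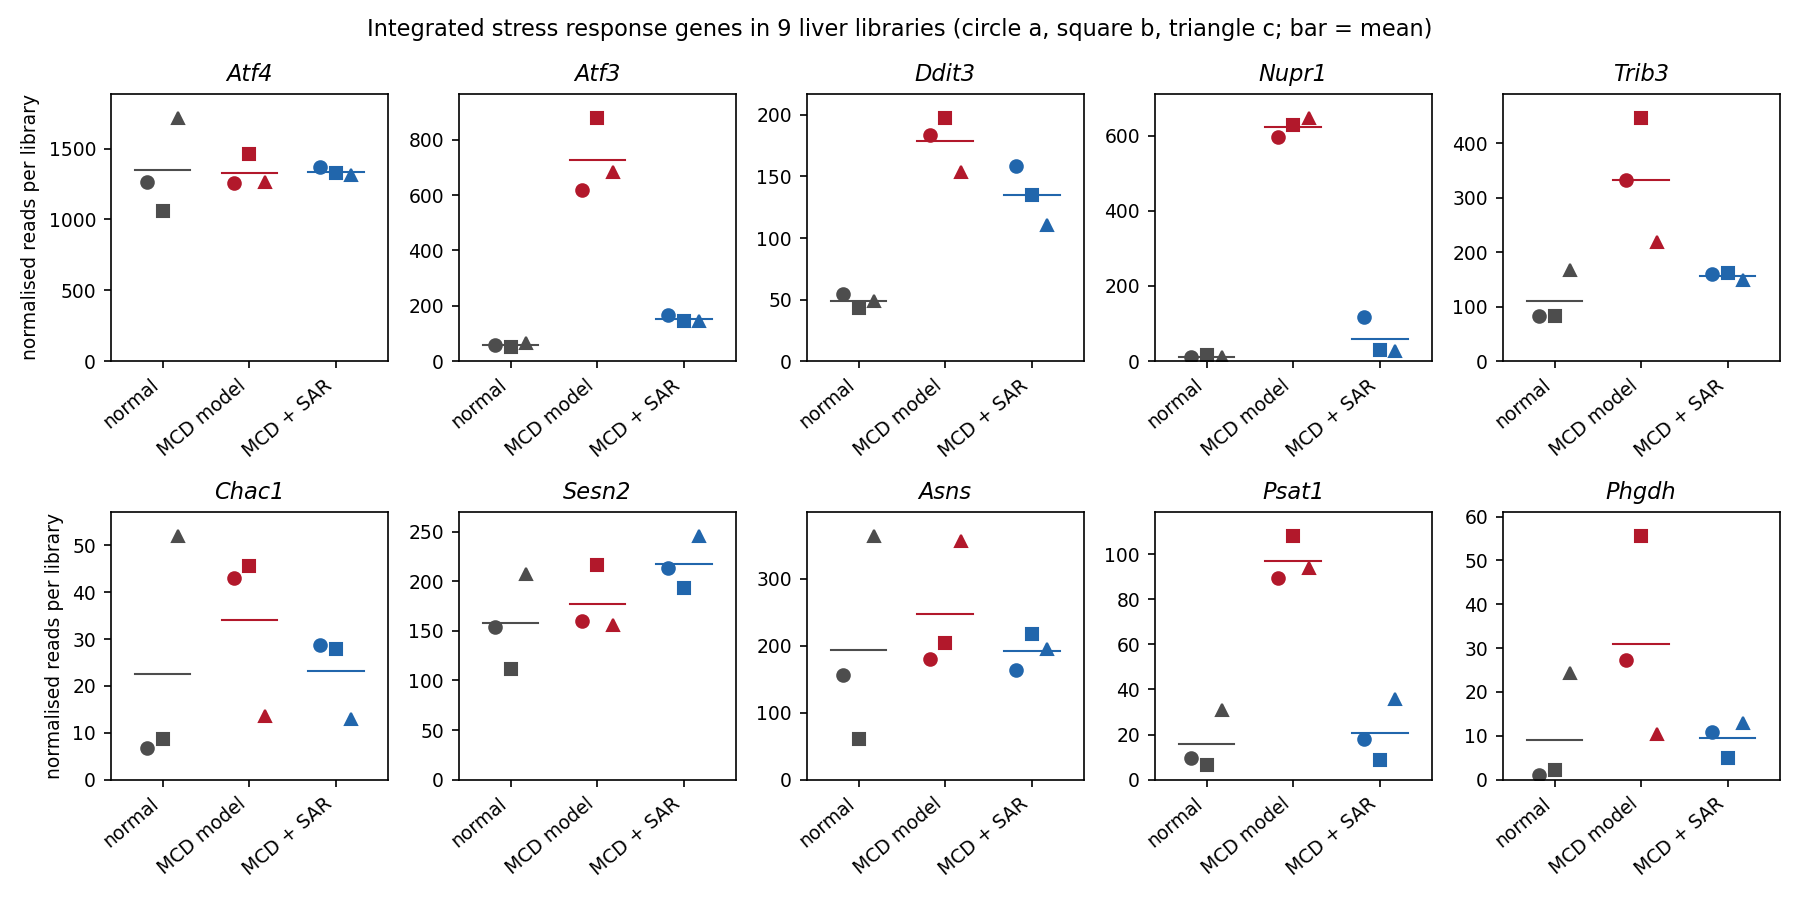
Normalised reads (common scale, linear y axis from 0) of each of the 10 genes in the 9 libraries, with library a as a circle, b as a square, c as a triangle and the group mean as a bar. Nupr1, Atf3 and Psat1 are high in all 3 model libraries and low in the other 6, while Atf4 lies between 1062 and 1717 in all 9.

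Liver of the MCD model carried more mRNA of the stress transcription factors Atf3 and Ddit3 than normal liver. It also carried more mRNA of the stress protein Nupr1, of the pseudokinase Trib3 and of the serine synthesis enzyme Psat1. Nupr1 rose by 5.61 ± 0.23 on the log2 scale (SE, n = 3 against 3; limma adjusted p = 6.42e-05) and Atf3 by 3.61 ± 0.18 (limma adjusted p = 1.41e-04). The mRNA of Atf4 itself had a log2 difference of 0.0080 ± 0.20 (limma adjusted p = 0.979). Of the 10 genes 5 were called higher, against 20.2% of the 12453 genes tested, and 0 lower, also at an unadjusted p under 0.05, against 18.9%, so that 39.2% of all genes were called in either direction. The authors' deposited table calls the same 5 higher and 0 lower, where it calls 13.2% of all its genes higher, 10.3% lower and 23.5% in either direction. The median log2 fold change of the 10 was 1.73, and that of all genes tested was 0.035. In 5 genes every model library lay above every normal library, which held for 27.0% of 12169 genes. In whole liver, a higher level from more cells of a type and one from more RNA per cell cannot be told apart.

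Atf4, the transcription factor at the centre of the response, had the highest level per kilobase of exon of the 10 genes in normal liver. It stood at 1267, 1062 and 1717 normalised reads in normal libraries a, b and c. The model libraries held 1257, 1458 and 1266. The SAR libraries held 1367, 1326 and 1310.3. The 3 groups overlapped, and the widest spread was among the normal libraries. The 95% interval of the log2 difference between model and normal was -0.45 to 0.47. Between SAR and model it was -0.31 to 0.36, around a difference of 0.024 (limma adjusted p = 0.913). The sign of these small differences changed when single libraries were left out, so neither has a direction. The 2 genes whose profile over the 9 libraries was nearest to that of Atf4 among 9718 genes were Vbp1 and Socs6. Their root mean squared differences from Atf4 in centred log2 values were 0.0753 and 0.0754.

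Nupr1 encodes a small chromatin-associated stress protein. It stood at 10.6, 16.2 and 9.94 normalised reads in the normal libraries, which rest on 11, 15 and 9 reads. In the model group the values were 596, 629 and 647. In the SAR group the values were 118, 29.1 and 25.7. All model libraries were far above the rest, the 3 groups did not overlap, and SAR library a was the highest of its group. The rise on the diet ranked 19 of the genes tested. Under SAR Nupr1 fell by 3.76 on the log2 scale (SE 0.49, limma adjusted p = 0.00154), and the difference was -4.45 (SE 0.18) without SAR library a. Against normal it was 1.81 ± 0.60 higher in the SAR group, which did not pass the test (limma adjusted p = 0.109), and 1.12 higher without SAR library a. The nearest profiles to Nupr1 were those of Cd63 and Emp1, at root mean squared differences of 0.696 and 0.757 in log2. Cd63, a tetraspanin of late endosomes, had group means of 63.7, 2440.3 and 386 normalised reads in normal, model and SAR liver.

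Atf3 encodes a repressing and activating bZIP factor induced by ATF4 and by many other stresses. It stood at 58.7, 51.9 and 65.2 normalised reads in the normal libraries. Values of the model libraries were 619.6, 879.6 and 685. Values of the SAR libraries were 166, 144 and 146. The 3 groups were separate, with SAR between normal and model. The rise on the diet ranked 177 among all genes tested. Under SAR Atf3 fell by 2.22 (SE 0.17, limma adjusted p = 2.41e-04). It stayed 1.36 ± 0.19 above normal in the SAR group (limma adjusted p = 0.0243).

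Ddit3 encodes CHOP, a C/EBP family factor linked to cell death under lasting stress. It stood at 54.8, 43.2 and 48.6 normalised reads in the normal libraries. The model libraries held 184, 198 and 154. The SAR libraries held 159, 135 and 110.5. Model and SAR libraries overlapped, and both groups lay above all normal libraries. The rise on the diet was 1.85 ± 0.21 (limma adjusted p = 0.00142). SAR against model gave -0.40 ± 0.20 (limma adjusted p = 0.164), with a 95% interval of -0.85 to 0.057. SAR against normal gave 1.43 ± 0.22 (limma adjusted p = 0.0259). The sources used here state no strand setting for the read counting. In the GENCODE annotation 68 bases of Ddit3 exon overlap Mars and 13 overlap Gm4189, both on the opposite strand. Another 63 overlap a second entry named Ddit3 on the same strand. Mars, a tRNA synthetase gene, moved the other way, with -0.59 on the diet (limma adjusted p = 0.0162) and 0.57 under SAR (limma adjusted p = 0.0236). The part of these overlaps in the counts of Ddit3 was not tested.

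Trib3 encodes a pseudokinase that ATF4 and CHOP induce and that restrains both. It stood at 82.7, 82.2 and 168 normalised reads in the normal libraries. In the model group the values were 332, 446 and 218. In the SAR group the values were 159, 161 and 149. Every model library lay above all others, with the gap narrowest between model library c and normal library c. The rise on the diet was 1.60 ± 0.35 (limma adjusted p = 0.0112). Under SAR Trib3 fell by 1.01 (SE 0.25, limma adjusted p = 0.0176). This call was lost without model library a, model library b, SAR library b or SAR library c, with limma adjusted p of 0.0626, 0.0665, 0.0581 and 0.0587. The authors' deposited table gives it an adjusted p of 0.0554.

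Psat1 encodes the phosphoserine aminotransferase, which acts on the product of PHGDH in serine synthesis. It stood at 9.62, 6.49 and 30.9 normalised reads in the normal libraries, from 10, 6 and 28 reads. Values of the model libraries were 89.5, 108 and 94.0. Values of the SAR libraries were 17.9, 8.49 and 36.0. All model libraries were above all others, and the normal and SAR libraries overlapped. Psat1 rose by 2.86 ± 0.53 on the diet (limma adjusted p = 0.00655), and by 3.48 without normal library c. It fell by 2.37 under SAR (SE 0.46, limma adjusted p = 0.00743). SAR against normal gave 0.46 ± 0.71 (limma adjusted p = 0.717).

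Phgdh encodes the enzyme of the first step of serine synthesis from glycolysis. It had the fewest reads of the 10 genes, with 1, 2 and 22 in the normal libraries. In normalised reads these were 0.962, 2.16 and 24.3. The model libraries held 27.2, 55.5 and 10.4. The SAR libraries held 10.8, 4.85 and 12.8. Normal library c lay above model library c, so the groups overlapped. The difference on the diet was 2.32 ± 1.06 (limma adjusted p = 0.116), and without normal library c it was 3.46 (limma adjusted p = 0.0149). SAR against model gave -1.41 ± 0.67 (limma adjusted p = 0.142), and without model library c it was -2.02 (limma adjusted p = 0.0202). Phgdh was under the filter on low values in SAR against normal, where a fit without the filter gave 0.83 (limma adjusted p = 0.643). The genes with the nearest profiles to Phgdh were Cnbd2 and Isyna1, at root mean squared log2 differences of 0.541 and 0.633.

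Asns encodes asparagine synthetase. It stood at 157, 60.5 and 363 normalised reads in the normal libraries. In the model group the values were 180.5, 204.5 and 356. In the SAR group the values were 164, 217 and 195. In both the normal and the model group library c was the highest, and all 3 groups overlapped. The difference on the diet was 0.64 ± 0.59 (limma adjusted p = 0.409), with a 95% interval of -0.73 to 2.01. Without normal library c it was 1.27 (limma adjusted p = 0.0544), and without normal library b -0.012. SAR against model gave -0.29 ± 0.26 (limma adjusted p = 0.412), and -0.0021 without model library c. Ldlrad3 and Slc13a3 had the profiles nearest to Asns, at root mean squared log2 differences of 0.325 and 0.401.

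Chac1 encodes an enzyme that breaks down glutathione, and Sesn2 encodes a leucine sensor that restrains mTORC1. Chac1 stood at 6.73, 8.65 and 51.9 normalised reads in the normal libraries. Its model libraries held 43.0, 45.6 and 13.5, and its SAR libraries held 28.7, 27.9 and 12.8. Library c was the highest of the normal group and the lowest of the other groups. The difference on the diet was 0.98 ± 0.82 (limma adjusted p = 0.362), and without normal library c it was 1.86 (limma adjusted p = 0.0485). For Chac1 in SAR against model it was -0.43 ± 0.55 (limma adjusted p = 0.575). Sesn2 stood at 154, 111 and 208 in the normal libraries. Its model libraries held 159.7, 217 and 156, and its SAR libraries held 214, 193 and 245. All 3 groups of Sesn2 overlapped, with differences of 0.21 ± 0.26 on the diet (limma adjusted p = 0.548) and 0.31 ± 0.19 under SAR (limma adjusted p = 0.243).

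**Figure D2:**
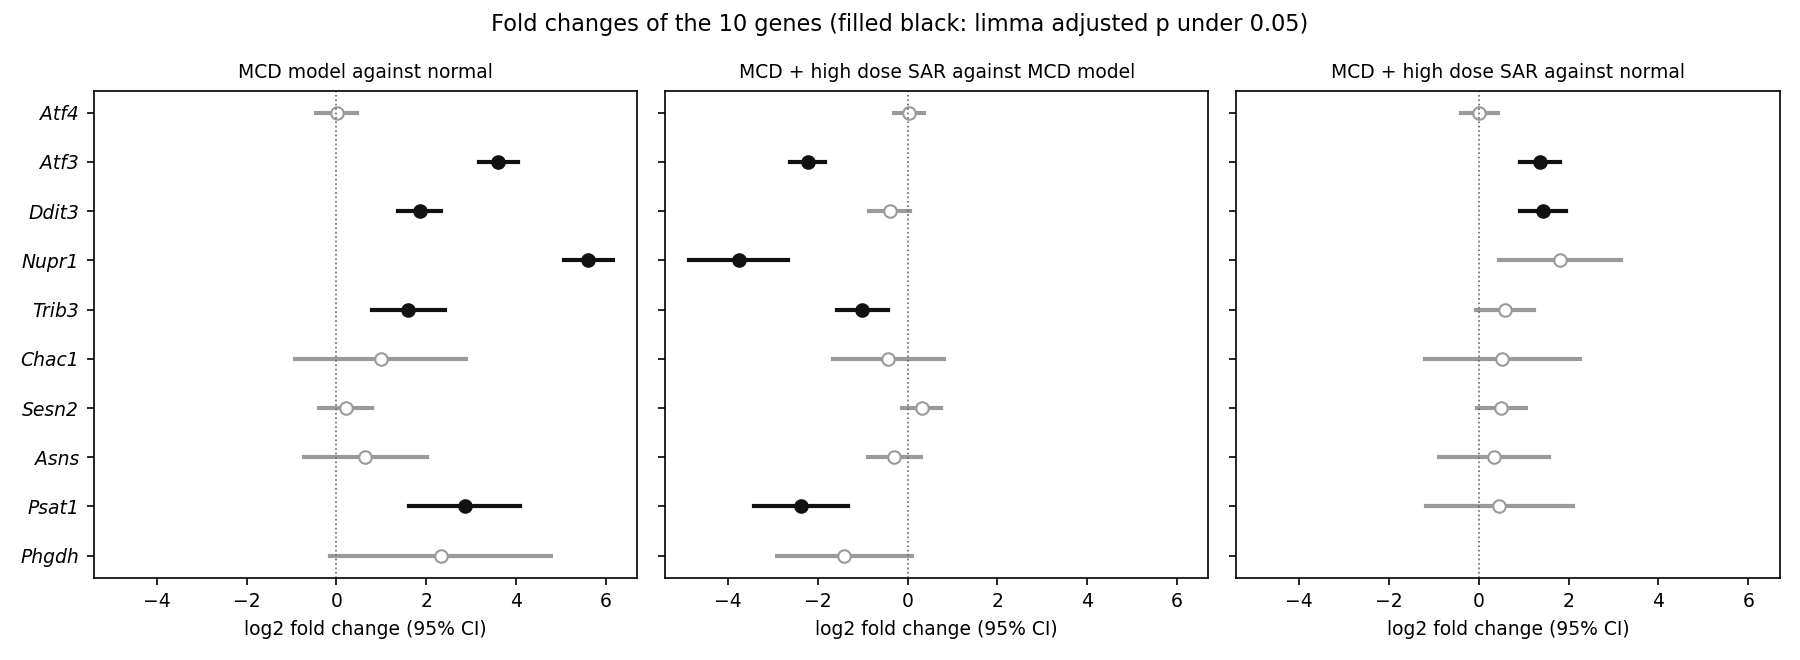
Log2 fold change (x axis, log2 of value + 1) with its 95% interval for the 10 genes in each of the 3 comparisons, filled black where limma's adjusted p is under 0.05 and open grey where it is not. In the left panel 5 genes are filled to the right of 0, in the middle panel 4 are filled to the left, and in the right panel Atf3 and Ddit3 are filled. Phgdh has no point in the right panel because it was under the filter.

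The 10 genes were often highest in the same library of a group. Normal library c was the highest of its group for 8 of the 10, against 40.1% of 12169 genes, and model library b, which did not stand apart, was the highest for 8 of the 10, against 25.3%. In log2 normal library c exceeded the mean of a and b by 3.34 for Phgdh, 2.62 for Chac1, 1.89 for Asns and 1.84 for Psat1, while the middle 50% of all genes lay between -0.31 and 0.30. Atf3, Ddit3 and Nupr1 differed by 0.24, -0.0025 and -0.37. Model library c lay below the mean of a and b by -1.81 for Phgdh, -1.64 for Chac1 and -0.82 for Trib3, and above it by 0.89 for Asns. Leaving out both libraries, an alternative chosen after the data were seen, raised the calls on the diet from 5 to 8 of 10. Calls rose over all genes in the same fit, from 2521 to 3777 higher and from 2357 to 3467 lower. The added genes were Phgdh at 4.06 (limma adjusted p = 3.18e-04), Chac1 at 2.41 (limma adjusted p = 0.00100) and Asns at 0.98 (limma adjusted p = 0.0254), which leaves 2 libraries a group. The part of RNA from neutrophils, cholangiocytes, stellate cells or other cell types in these differences was not tested.

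**Figure D3:**
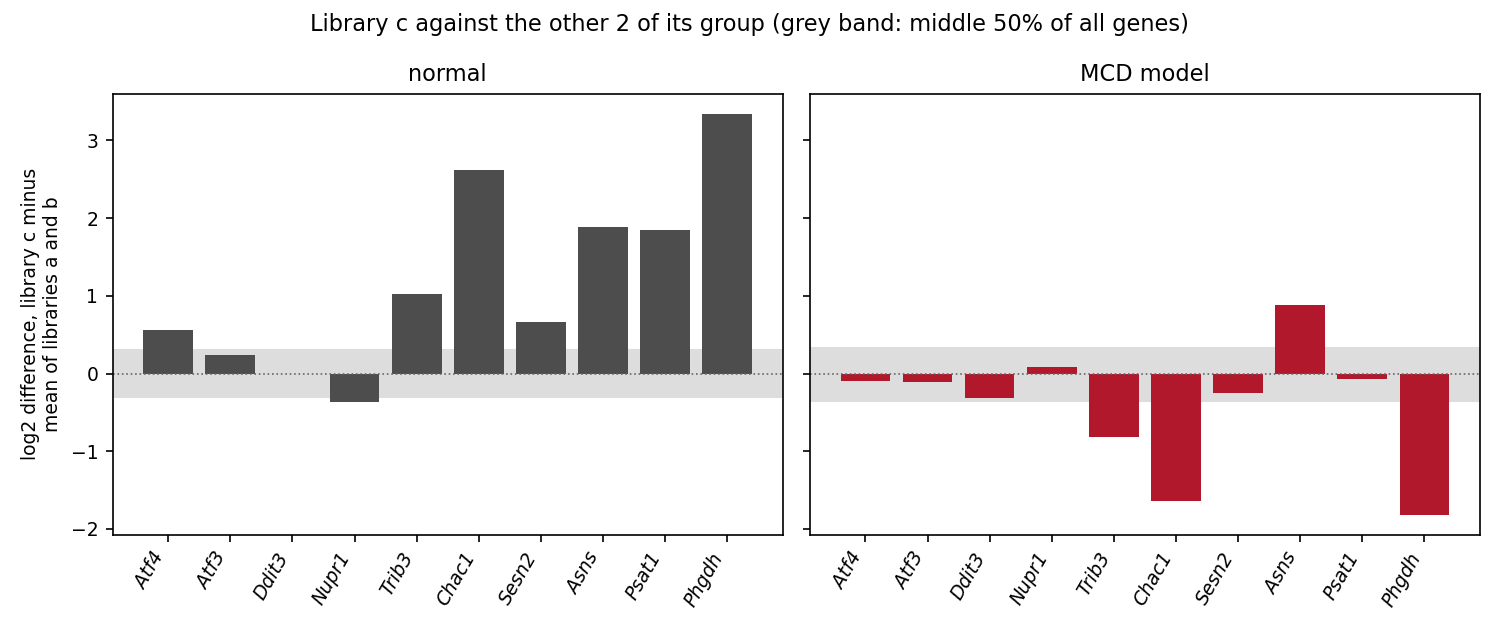
Log2 difference of library c from the mean of libraries a and b (y axis) for each of the 10 genes in the normal group (left) and the MCD model group (right), with the middle 50% of all 12169 genes as a grey band. In the normal group Atf4, Trib3, Chac1, Sesn2, Asns, Psat1 and Phgdh lie above the band, led by Phgdh at 3.34. Nupr1, at -0.37, lies below it. In the model group Phgdh, Chac1 and Trib3 lie below the band and Asns above.

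Treatment with SAR went with lower Atf3, Nupr1, Psat1 and Trib3 in MCD liver. Of the 10 genes 4 were called lower in SAR against model, against 16.3% of the 12365 genes tested. Higher calls numbered 0, also at an unadjusted p under 0.05, against 12.9%, and 29.2% of all genes were called in either direction. The authors' deposited table calls 3 of the 10 lower, Atf3, Nupr1 and Psat1, and 0 higher, where it calls 9.76% of all its genes lower, 6.79% higher and 16.5% in either direction. The median log2 fold change was -0.72 over the 10 genes and 0.0093 over all genes tested. In 4 genes every SAR library lay below every model library, as in 23.6% of 12169 genes. This comparison shares its model libraries with that of model against normal, so the pair is not independent. The ratio of group means was 0.0932 for Nupr1, 0.211 for Atf3, 0.216 for Psat1 and 0.475 for Trib3 in the authors' deposited table. In the same table the ratios of model to normal were 51.2, 12.5, 6.22 and 3.01.

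Against normal liver, the SAR group had higher Atf3 and Ddit3. Of 9 genes tested 2 were called higher, against 1.74% of the 11484 genes tested, and 0 lower, also at an unadjusted p under 0.05, against 1.83%, with 3.57% of all genes called in either direction. In 3 genes, Atf3, Ddit3 and Nupr1, every SAR library lay above every normal library, as in 15.5% of 12169 genes. The median log2 fold change was 0.52 over the 9 genes and 0.00026 over all genes tested. The calls of Atf3 and Ddit3 were lost when any 1 of normal libraries a and b or SAR libraries a, b and c was left out. The limma adjusted p then ran from 0.0576 to 0.0852 for Atf3 and from 0.0532 to 0.0926 for Ddit3, with log2 differences that stayed at 1.28 or more. Without normal library c both were called, and Trib3 was too, at 0.91 (limma adjusted p = 0.0257), in a fit where higher calls over all genes rose from 200 to 530.

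Levels of different genes were compared per kilobase of exon, as group means of normalised reads on the common scale. In normal liver Atf4 stood at 782, Asns at 89.5, Ddit3 at 54.9, Trib3 at 54.7 and Sesn2 at 45.4. Below these came Atf3 at 27.2, Nupr1 at 14.8, Chac1 at 13.7, Psat1 at 5.34 and Phgdh at 4.83. In model liver Nupr1, at 753, was beside Atf4, at 769, and Atf3 followed at 338. Ddit3 stood at 201 and Trib3 at 164, both above Asns at 114. In SAR liver Atf4 was at 774 and Ddit3, at 151, came next, ahead of Asns at 88.8, Trib3 at 77.2, Atf3 at 70.7 and Nupr1 at 69.6. Neighbours such as Ddit3 and Trib3 in normal liver, or Atf3 and Nupr1 in SAR liver, did not differ beyond the spread of their libraries.

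Among regulators of eIF2α phosphorylation, Eif2ak3 and Ppp1r15a were higher in model liver and Eif2ak1, Dnajc3 and Ppp1cb lower, at the mRNA level. Eif2ak3, which encodes PERK, stood at 154, 150.3 and 159 normalised reads in the normal libraries and at 238, 293 and 280.3 in the model libraries. It rose by 0.80 ± 0.15 (limma adjusted p = 0.00647), and the groups did not overlap. Ppp1r15a, which encodes the GADD34 subunit that directs eIF2α dephosphorylation, rose by 0.82 ± 0.22 (limma adjusted p = 0.0224). Eif2ak1, which encodes HRI, fell by 0.62 (limma adjusted p = 0.0153). Eif2ak2, for PKR, gave 0.26 (limma adjusted p = 0.429) and Eif2ak4, for GCN2, 0.055 (limma adjusted p = 0.832). Dnajc3, an inhibitor of PERK, fell by 1.29 (limma adjusted p = 0.00446) and Ppp1cb, a catalytic phosphatase subunit, by 1.13 (limma adjusted p = 0.00251). Of the 9 genes tested in this list 2 were higher and 3 lower, beside 20.2% and 18.9% of all genes, so the counts are near the background. The list's median was -0.45. mRNA levels say nothing of the kinases' activity or of eIF2α phosphorylation, which were not measured.

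Under SAR, Eif2ak3 gave -0.072 ± 0.19 (limma adjusted p = 0.797) and Ppp1r15a -0.16 ± 0.22 (limma adjusted p = 0.614) against model. The SAR libraries of Eif2ak3 held 259, 310.4 and 203 normalised reads. Of these 3, the lowest lay above all normal libraries and the other 2 within or above the model range. Against normal the group's difference was 0.71 (limma adjusted p = 0.0681). Eif2ak1 rose by 0.66 (limma adjusted p = 0.0153) and Dnajc3 by 0.84 (limma adjusted p = 0.0220) in SAR against model, the 2 called of the 9 tested, beside 12.9% of all genes called higher.

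Of the 8 pathway lists, the amino acid enzymes and transporters of the ATF4 program had the highest medians on the diet among genes tested. Among 9 enzymes tested 5 were higher and 2 lower by limma, beside 20.2% and 18.9% of all genes, with a median of 1.50. Cth, Got1 and Gpt2, 3 abundant enzymes of this list, could not be divided among the normal libraries and are outside this count and median. All 3 were lower in the authors' deposited table, at ratios of 0.230, 0.193 and 0.619 (adjusted p = 4.56e-09, 0.0156 and 0.0240). Pck2, the mitochondrial PEP carboxykinase, stood at 55.8, 78.9 and 58.5 normalised reads in the normal libraries, at 367, 381 and 393 in the model libraries and at 129, 70.3 and 107 in the SAR libraries. It rose by 2.57 ± 0.18 on the diet (limma adjusted p = 4.66e-04) and fell by 1.92 under SAR (limma adjusted p = 0.00115). Mthfd2, of mitochondrial one-carbon metabolism, rose by 2.25 (limma adjusted p = 0.0141) and Aldh18a1, of proline synthesis, by 1.74 (limma adjusted p = 0.0326). Cbs, the first enzyme of transsulfuration, fell by 1.46 (limma adjusted p = 0.00364). In SAR against model, where Cth and Got1 could be tested too, 3 of 11 enzymes were higher and 3 lower, beside 12.9% and 16.3% of all genes. The median was -0.47, over a set of genes that differs from that on the diet. Pycr1, of proline synthesis, was among the lower ones at -2.58 (limma adjusted p = 0.0239), while Shmt2, which makes glycine from serine in mitochondria, rose by 0.81 (limma adjusted p = 0.0150) and Cbs by 0.87 (limma adjusted p = 0.0307).

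Among 10 transporters tested 5 were higher and 2 lower on the diet, beside the same 20.2% and 18.9%, with a median of 0.72. Slc7a11, the cystine-glutamate exchanger, rose by 3.89 ± 0.78 (limma adjusted p = 0.00838) from 0, 3.24 and 5.52 normalised reads in the normal libraries to 43.0, 47.9 and 35.0 in the model libraries. Slc7a6 rose by 3.07 (limma adjusted p = 0.00639), Slc1a5, a glutamine carrier, by 1.74 (limma adjusted p = 0.0115) and Slc7a1, a cationic amino acid carrier, by 1.86 (limma adjusted p = 0.0130). Under SAR 5 of 10 were lower and 1 higher, beside 16.3% and 12.9% of all genes, with a median of -1.05. Slc7a1 fell by 1.95 (limma adjusted p = 0.0111) to 14.3, 10.9 and 8.99 normalised reads, beside 13.5, 8.65 and 15.5 in the normal libraries. Slc1a5 fell by 1.42 (limma adjusted p = 0.0118) and Slc7a6 by 1.70 (limma adjusted p = 0.0270). The 1 transporter that rose was Slc38a2, for small neutral amino acids, at 0.77 (limma adjusted p = 0.0169).

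The tRNA synthetases and the partner transcription factors had calls in both directions on the diet. The tRNA synthetase list also holds Xpot, which encodes a tRNA exporter. Of its 14 genes tested 3 were higher and 7 lower on the diet, beside 20.2% and 18.9% of all genes, with a median of -0.43. Sars and Vars rose by 0.73 (limma adjusted p = 0.0153) and 0.95 (limma adjusted p = 0.0158), while Iars and Tars fell by 0.70 (limma adjusted p = 0.00849) and 1.21 (limma adjusted p = 0.0146). Under SAR 2 of the 14, Aars and Mars, were higher and 0 lower by limma, where 2 were lower at an unadjusted p under 0.05. With 12.9% of all genes called higher, this count is near the background. Of 14 transcription factors that partner ATF4 or act beside it, 4 were higher and 2 lower on the diet, which is also near the background. Maff rose by 2.89 (limma adjusted p = 0.00152), and the AP-1 genes Jun and Fos by 1.33 (limma adjusted p = 0.00327) and 1.89 (limma adjusted p = 0.00693). Creb3l3, a factor cleaved from the endoplasmic reticulum membrane in liver, fell by 1.36 (limma adjusted p = 0.00964). Under SAR Jun fell by 0.66 (limma adjusted p = 0.0214) and Jdp2 by 1.73 (limma adjusted p = 0.0312), and Creb3l3 rose by 0.84 (limma adjusted p = 0.0455).

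Stress effectors and secreted factors numbered 20 tested, of which 8 were higher and 3 lower on the diet, beside 20.2% and 18.9% of all genes, with a median of 0.68. Gdf15, a stress hormone, stood at 61.5, 31.4 and 79.5 normalised reads in the normal libraries, at 360, 458 and 545 in the model libraries and at 456, 212 and 191 in the SAR libraries. It rose by 3.05 ± 0.34 on the diet (limma adjusted p = 0.00147). Tnfrsf10b, the TRAIL receptor that CHOP induces, rose by 3.67 (limma adjusted p = 0.00427) and Gadd45b by 1.33 (limma adjusted p = 0.00530). Ero1l, an oxidase of the endoplasmic reticulum that CHOP induces, fell by 1.20 (limma adjusted p = 0.00205). Under SAR 5 of 20 were lower and 3 higher, beside 16.3% and 12.9% of all genes, with a median of -0.65. Tnfrsf10b fell by 2.84 (limma adjusted p = 0.00790), the hormone gene Fgf21 by 1.92 (limma adjusted p = 0.00938) and Pmaip1, a BH3-only death gene, by 1.18 (limma adjusted p = 0.0189). Nr1h4, the bile acid receptor FXR, rose by 1.14 (limma adjusted p = 0.0117).

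Where endoplasmic reticulum chaperones and mitochondrial stress genes were called, it was mostly in the direction opposite to Atf3 and Nupr1, and under SAR many were not called. On the diet 10 of 18 chaperones and ATF6 or XBP1 targets were lower and 1 higher, beside 18.9% and 20.2% of all genes, with a median of -0.69. Sel1l fell by 1.01 (limma adjusted p = 0.00274), Hyou1 by 0.93 (limma adjusted p = 0.00423), Hsp90b1, which encodes GRP94, by 1.30 (limma adjusted p = 0.00446) and Creld2 by 0.86 (limma adjusted p = 0.00464). Of 10 mitochondrial stress genes 7 were lower and 0 higher, also at an unadjusted p under 0.05, with a median of -0.64, among them Dnaja3 at -1.17 (limma adjusted p = 0.00256) and the chaperone Hspd1 at -1.33 (limma adjusted p = 0.00831). Under SAR 8 of 17 chaperones were higher, beside 12.9% of all genes, and 0 lower, also at an unadjusted p under 0.05, with a median of 0.74. Creld2 rose by 1.35 (limma adjusted p = 0.00465), Hyou1 by 1.09 (limma adjusted p = 0.0107) and Hsp90b1 by 0.89 (limma adjusted p = 0.0113). Of the mitochondrial genes 5 of 10 were higher and 0 lower, also at an unadjusted p under 0.05, with Trap1 at 0.87 (limma adjusted p = 0.00498) and Dnaja3 at 0.98 (limma adjusted p = 0.00634).

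**Figure D4:**
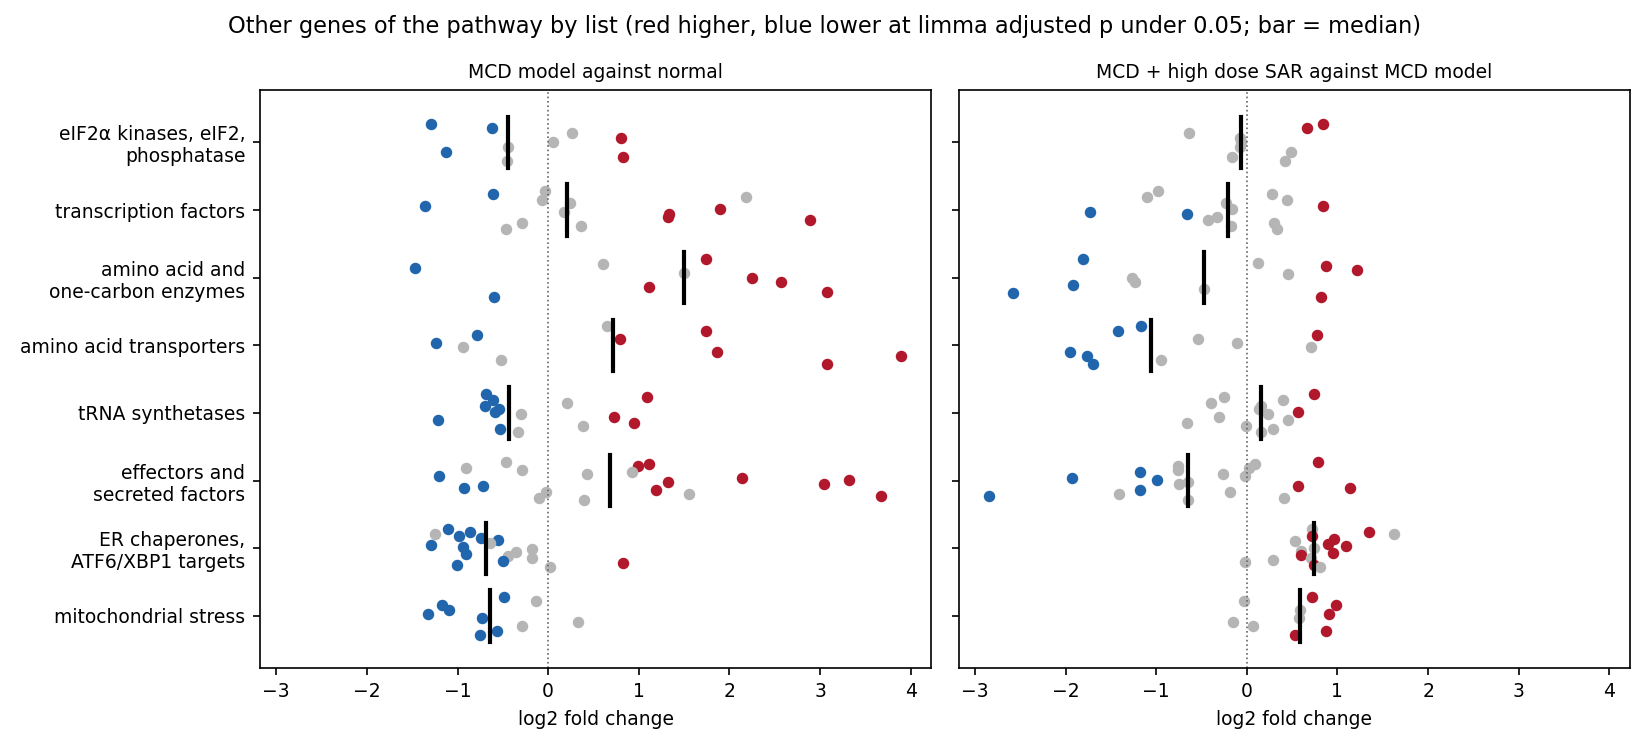
Log2 fold change (x axis) of every tested gene of the 8 pathway lists in MCD model against normal (left) and SAR against model (right), red where limma called it higher, blue where lower and grey where neither, with the list's median as a black bar. On the left the amino acid enzymes have the highest median among genes tested, at 1.50. Cth, Got1 and Gpt2, which were lower in the authors' deposited table, have no point there and are outside this median. The chaperones and mitochondrial genes lie mostly below 0 on the left and mostly above 0 on the right.

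Over the 8 lists 28 of 104 genes tested were higher and 36 lower on the diet, beside 20.2% and 18.9% of all genes. In SAR against model 25 of 105 were higher and 15 lower, beside 12.9% and 16.3%. In SAR against normal 4 of 98 were higher and 0 lower, beside 1.74% and 1.83%. These 4 were Maff at 2.44 (limma adjusted p = 0.0243), Fos at 1.71 (limma adjusted p = 0.0333), Gdf15 at 2.28 (limma adjusted p = 0.0333) and Bbc3, which encodes the BH3-only protein PUMA, at 1.19 (limma adjusted p = 0.0437). At an unadjusted p under 0.05 some of the 98 were lower too, among them 3 genes of the kinase list and 4 transcription factors.

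Markers of other cell types were also called in these comparisons. Over all genes tested, limma called 20.2% higher and 18.9% lower on the diet. In SAR against model it called 12.9% higher and 16.3% lower, and in SAR against normal 1.74% and 1.83%. The 15 macrophage markers summed to between 6102 and 9072 normalised reads in the normal libraries, to between 19106 and 21555 in the model libraries and to between 6191 and 9090 in the SAR libraries, with none at 0 in any library. Of these 9 were called higher and 3 lower on the diet, and 10 lower under SAR. The 10 stellate cell and fibroblast markers summed to between 1057 and 4598, between 11007 and 26639 and between 3802 and 6804 in the same order, with 7 called higher on the diet and 9 lower under SAR. The 11 T and NK cell markers summed to between 132 and 156, between 695 and 847 and between 211 and 393, with 9 called higher and 4 lower. The 10 cholangiocyte markers summed to between 577 and 1011, between 2116 and 11214 and between 917 and 1918, with 8 of 9 tested called higher and 5 lower. Of 11 neutrophil markers tested 1 was called higher on the diet, and 10 of 12 were lower under SAR. Of 9 sinusoidal endothelial markers 1 was higher and 4 lower on the diet and 2 were lower under SAR. Of 5 B and plasma cell markers 1 was higher and then 1 lower. These B and plasma cell counts, and the endothelial count under SAR, are near the background. In SAR against normal 6 macrophage markers were higher and 3 lower, 1 endothelial marker was lower, and the other lists had 0 calls by limma, with 6 T and NK cell, 3 stellate and 1 cholangiocyte marker higher at an unadjusted p under 0.05. Nupr1, Atf3 and Psat1 were highest in the model group, as were the macrophage, stellate, T and NK cell, B and plasma cell and cholangiocyte sums. Neutrophil sums were 125, 282 and 8067 in the normal libraries and 1352, 1749 and 2947 in the model libraries. Endothelial sums were 3968, 5222 and 2532 in the normal libraries and 3348, 3223 and 3141 in the model libraries. The part of these cells' RNA in the levels of the 10 genes was not tested. The 12 hepatocyte markers could not be divided among the normal or the SAR libraries, so limma did not test them. The authors' deposited table calls 7 of them lower and 0 higher on the diet, with ratios from 0.155 for Cps1 to 1.01 for Ahsg. Under SAR it calls 10 higher and 0 lower, with ratios from 1.06 to 3.40. Over all its genes it calls 13.2% higher and 10.3% lower on the diet, and 6.79% and 9.76% under SAR.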

How the data were processed

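Per the labels' protocols, Trizol was used to extract total RNA from liver and a NEBNext Ultra kit to make the libraries. The submitters' processing notes name mm9 as the build, and the sources used here name no aligner, counter or annotation. The authors deposited 2 tables, model against normal and SAR against model. Per the file headers, the deposited signal is a gene's mean read count in a group after DESeq normalisation. Per the file headers, each fold is a ratio between those means, given also as a log2 value, with the p-values of the authors' test. No deposited column holds 1 library.

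The design allowed for counts per sample, but the files hold group means, so limma was used. Each mean, deposited to about 15 digits, was solved for the 3 whole read numbers that give it (numba 0.67.0 under Python 3.11.15). Every mean tried had 1 solution: 14996 of 14996 normal, 14927 of 14927 SAR and 16057 of 16057 model genes. The 2 tables share the model group, where 16045 of 16045 genes were solved alike, while 0 of 1000 slightly moved means were solved. In all 9 libraries 16303 genes were resolved. Values of the other 218 are given only from the authors' deposited table, though those resolved in both groups of a comparison entered its limma fit. Symbols were matched for 16490 of the 16521 gene IDs.

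limma 3.58.1 (R 4.3.3, trended variance) was run two-sided on log2(value + 1) for genes whose mean over the 6 libraries compared was 10 or more. The added 1 lowers the log2 fold changes of low genes. As means of logs they can still exceed the log2 ratio of group means in the authors' deposited table. On the diet Phgdh gave 2.32 against 1.77 there, and Nupr1 5.61 against 5.68. The authors' size factors were used within each table, and for SAR against normal they were recomputed as medians of ratios. The script was tested on simulated data. Exon lengths and overlaps come from GENCODE, and promoter sequences from RefSeq on GRCm38.p6, a build used for no coordinate of the deposited data.

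The 10 genes, 8 pathway lists (113 of whose 128 symbols, aliases included, are in the tables) and 8 marker lists were chosen with earlier results of these data known. All 10 genes are named, from each list up to 4 called genes with the lowest adjusted p, the eIF2α kinases and Ppp1r15a, and for 4 members the 2 genes nearest in profile with a mean of at least 50. Mars, Gm4189, Xpot, Spp1, Bbc3, albumin, Cps1, Ahsg and the abundant genes read from the deposited table alone were named apart from this rule. The reasons were an overlap, the content of a list, a small count or a check.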

Additional observations from a re-analysis of the deposited data

How the results depend on the processing

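Calls and signs of the 10 genes were recomputed with pseudocounts of 0.5 and 5, no filter and a filter at 50, size factors over 9 libraries with 3 groups in 1 fit, TMM library sizes, the authors' deposited p-values and each library left out in turn, and on the diet also without normal library c and model library c together, added after seeing the data. With 1 library left out a group has 2. The planned count models were not run on the recovered reads. No paired analysis was possible because the recovered libraries carry no replicate number.

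On the diet, 126 of 138 values of single genes kept their direction and side of the threshold, 5 newly passed, 3 of them without both c libraries, and 7 changed sign. In SAR against model 120 of 128 did, with 5 lost, 1 newly passed and 2 changed in sign, and in SAR against normal 90 of 105, with 10 lost, 1 newly passed and 4 changed in sign. The genes called on the diet stayed called throughout. The count of members called on the diet was 5 to 7 with 1 library left out and 8 without both c libraries, where calls over all genes rose to 3777 higher and 3467 lower. In SAR against model it was 3 to 5, and in SAR against normal 0 to 3. Calls over all genes varied in these fits too, with ranges given below for single libraries left out.

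The signs that changed were of differences that did not pass. Atf4 on the diet was -0.010 with TMM and -0.017 in the authors' deposited table, and ran from -0.15 to 0.20 with 1 library left out. Atf4 ran from -0.013 to 0.099 in SAR against model and from -0.14 to 0.20 in SAR against normal. On the diet Sesn2 ran from -0.022 to 0.43 and Asns from -0.012 to 1.27. In SAR against normal Asns ran from -0.32 to 0.96 and Psat1 from -0.027 to 1.06. The cause of these changes was not tested.

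Counts over all genes moved by more than 1.5 times with 1 library left out. On the diet 2521 higher became 1267 to 2854 and 2357 lower became 1164 to 2871. In SAR against model 1599 higher became 605 to 2458 and 2010 lower became 915 to 2612, and in SAR against normal 200 higher became 4 to 530 and 210 lower became 1 to 531. Against these, the authors' deposited table calls 23.5% of genes on the diet and 16.5% under SAR, where limma called 39.2% and 29.2%. The low reads of Phgdh, Psat1, Nupr1 and Chac1 in normal liver limit what their fold changes can show.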

Other observations

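Some abundant genes of the pathway lists could not be divided among libraries in every group and have values from the authors' deposited table alone. Hspa5, which encodes the chaperone BiP, had a ratio of 0.510 between model and normal group means (adjusted p = 0.00100) and of 1.92 between SAR and model (adjusted p = 0.0853). Herpud1, an endoplasmic reticulum degradation gene induced by unfolded protein, had ratios of 0.639 (adjusted p = 0.0913) and 3.25 (adjusted p = 8.96e-05) in the same table. Calr, a lectin chaperone, had 0.561 (adjusted p = 0.135) and 1.74 (adjusted p = 0.0144).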
